A study of Mus musculus with 24 samples.

Results

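The 9 genes followed here are used as markers of glutamatergic neurons, though some also occur in other neurons. All were measured in RNA from basal forebrain cholinergic neurons. They are 9 of the 55414 genes in the deposited tables and were chosen by symbol, matched through their Ensembl identifiers. The 3 genes Slc17a7, Slc17a6 and Slc17a8 encode the vesicular glutamate transporters, and the 6 genes Neurod2, Neurod6, Tbr1, Emx1, Bcl11b and Cux2 encode transcription factors of cortical and hippocampal excitatory neurons. All 9 were matched and all 9 passed the filter on low counts.

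The 24 libraries came from male mice about 6 months old, 1 library per animal. Each was made from about 500 neurons that were stained for choline acetyltransferase and cut out by laser from the medial septum and the diagonal band's vertical limb (MS/VDB). Ts65Dn mice, a model of Down syndrome, carry an extra chromosome with segments of chromosomes 16 and 17, and 2N mice are disomic; both came from Ts65Dn dams and C57Bl/6J Eicher × C3H/HeSnJ F1 males. Until weaning the maternal chow held choline chloride at 1.1 g/kg (control diet) or 5.0 g/kg (supplemented diet), and from weaning on every offspring was fed the control diet. There were 6 libraries of control-diet 2N and 4 of supplemented 2N, and 6 of control-diet Ts65Dn and 8 of supplemented Ts65Dn, although the design text gives 6 animals per group. A library is named here by its group and a replicate number in accession order. The design asks how genotype and maternal diet change RNA levels in these neurons, and the diet was given to the dam, so littermates, which are not labelled, may share an exposure.

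Vesicular transporters load glutamate into synaptic vesicles, so a neuron that releases glutamate needs at least one of them. Slc17a7 (VGLUT1) is the main form in cortex and hippocampus, Slc17a6 (VGLUT2) in thalamus, brainstem and other subcortical regions, including glutamatergic neurons of the medial septum, and Slc17a8 (VGLUT3) occurs in scattered neurons, among them some that release acetylcholine or serotonin. Neurod2 and Neurod6 encode basic helix-loop-helix factors of differentiating and mature excitatory cortical neurons, which bind the E-box motif. Tbr1 acts in deep-layer cortical neurons, Emx1 in the dorsal telencephalon, Bcl11b (CTIP2) in deep-layer projection neurons and also in striatal projection neurons, and Cux2 in upper-layer neurons and some interneurons.

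The sequences just upstream of 3 of these genes are shown: Slc17a7 and Slc17a6, whose levels are set side by side below, and Neurod2, whose protein binds E-boxes. They are RefSeq sequences of GRCm38.p6, the 250 bases before the annotated start, 5′ to 3′ on the gene's own strand, at chr7:45163671-45163920 (plus strand, Slc17a7), chr7:51621580-51621829 (plus strand, Slc17a6) and chr11:98329646-98329895 (minus strand, Neurod2). Capitals mark each match to the E-box CANNTG, which reads the same pattern on both strands.
Slc17a7: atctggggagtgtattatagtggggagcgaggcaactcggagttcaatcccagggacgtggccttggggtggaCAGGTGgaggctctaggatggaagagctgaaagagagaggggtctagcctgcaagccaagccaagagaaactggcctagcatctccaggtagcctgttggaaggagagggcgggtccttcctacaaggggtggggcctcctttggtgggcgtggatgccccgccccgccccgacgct
Slc17a6: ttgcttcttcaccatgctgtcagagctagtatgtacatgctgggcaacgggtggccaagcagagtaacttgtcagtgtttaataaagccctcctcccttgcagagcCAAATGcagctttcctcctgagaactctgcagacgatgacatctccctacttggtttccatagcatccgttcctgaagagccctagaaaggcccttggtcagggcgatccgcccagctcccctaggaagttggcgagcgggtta
Neurod2: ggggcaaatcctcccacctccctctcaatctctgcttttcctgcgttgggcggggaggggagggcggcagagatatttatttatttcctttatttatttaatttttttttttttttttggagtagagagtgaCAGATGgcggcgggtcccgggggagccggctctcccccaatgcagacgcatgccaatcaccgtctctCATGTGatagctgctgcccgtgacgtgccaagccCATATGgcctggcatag
Slc17a7 and Slc17a6 held 1 match each (CAGGTG and CAAATG) and Neurod2 held 3, among them a CAGATG. Of 32851 promoter windows of this length, 66.2% held a CANNTG and 14.4% a CAGATG (searched on both strands), so a match is common and says nothing of binding.

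The libraries differed in depth and in signs of capture. Total counts ran from 4688258 to 13443438, so the limit that a count of 0 allows (3 counts) was 0.22 to 0.64 CPM (the count scaled by the library's total), counting error only. Chat, the gene of the stained enzyme, was under 1 CPM in 6 libraries: control-diet Ts65Dn 3, 5 and 6 (0, 0.86 and 0.60), control-diet 2N 5 (0.79), supplemented Ts65Dn 7 (0.39) and supplemented 2N 3 (0.59). The other defining cholinergic genes did not follow Chat in every library. Slc18a3 was at 0 in control-diet Ts65Dn 2, 3, 4 and 5, and Slc5a7 was at 0 in replicates 2 and 3 and at 0.09 CPM in replicate 5, although replicate 2 held 17.4 CPM of Chat. Control-diet 2N 5 and supplemented 2N 3, with little Chat, held 46.2 and 33.3 CPM of Slc5a7. Xist exceeded 50 counts in 4 libraries (control-diet Ts65Dn 1, 2 and 6 and supplemented 2N 2), though all 24 held counts of the Y-linked Kdm5d and the animals are described as male. The 2 mitochondrial ribosomal RNAs took 13.5% to 43.3% of counts. In supplemented Ts65Dn they took 29.0% to 43.3% in 6 libraries and 17.8% and 21.2% in replicates 2 and 5, whose columns in the deposited series table stand among those of supplemented 2N. Over the triplicated segment of chromosome 16, 57 of 76 tested protein-coding genes had a positive log2 difference in Ts65Dn on the control diet (median 0.38, 1 called, 11 at an unadjusted p under 0.05, and 4 called by DESeq2) and 61 of 76 on the supplemented diet (median 0.62, 0 called at an adjusted p under 0.05, 15 at an unadjusted p under 0.05, and 5 called by DESeq2). Over all 19967 tested genes on the control diet, edgeR called 67, DESeq2 called 326, and 2179 had an unadjusted p under 0.05, with 49% positive. On the supplemented diet edgeR called 36, DESeq2 called 410, and 1894 had an unadjusted p under 0.05, with 54% positive. The first part of the animal identifier (14 to 17), whose meaning is not stated, was spread unevenly over the groups and was examined as a possible batch.

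On the length-scaled TPM axis, the only one on which genes are compared, Cux2 and Bcl11b stood highest and Slc17a8 and Emx1 lowest. The mean over 24 libraries was 35.4 ± 15.9 TPM for Cux2, 31.1 ± 18.7 for Bcl11b, 17.5 ± 39.6 for Slc17a7, 6.42 ± 6.65 for Slc17a6 and 3.24 ± 8.59 for Neurod2 (SD, n = 24). Tbr1 followed at 2.42 ± 4.35, Neurod6 at 0.96 ± 2.39, Emx1 at 0.59 ± 1.98 and Slc17a8 at 0.58 ± 1.07. Each gene lay closer to its neighbour in this order than the SD of the higher of the 2. That SD is the spread between libraries, and the order of neighbours was not tested within the libraries they share. The genes differed more in how evenly they were spread. Cux2 and Bcl11b were detected in 24 of 24 libraries, Slc17a6 in 23, Tbr1 in 18, Slc17a7 in 17, Neurod2 in 15, Slc17a8 in 12, Neurod6 in 10 and Emx1 in 6. A single library held 73.6% of the summed CPM of Emx1, 61.9% of that of Neurod2 and 57.6% of that of Slc17a7, against 15.5% for Slc17a6, 10.3% for Bcl11b and 6.6% for Cux2. By median TPM Slc17a6 (5.29) stood above Slc17a7 (2.54), the reverse of their means, and Slc17a8 (0.045) was lowest of the transporters by both.

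Slc17a7, the cortical and hippocampal vesicular transporter, varied most among the transporters. Control-diet 2N 1 to 6 held 0, 0, 68.2, 97.8, 6.42 and 4.09 CPM. Control-diet Ts65Dn 1 to 6 held 55.7, 14.9, 705, 0, 85.9 and 119 CPM. The 6 libraries over 50 CPM were 2 of control-diet 2N and 4 of control-diet Ts65Dn, and none of the 12 supplemented libraries exceeded it. Of these, control-diet 2N 3 and 4 and control-diet Ts65Dn 3, 5 and 6 had identifier prefix 17, and control-diet Ts65Dn 1 had prefix 16. The only supplemented library with prefix 17 was Ts65Dn 8, so diet and prefix cannot be told apart in this split. Supplemented 2N 1 to 4 held 0, 0.85, 8.27 and 17.9 CPM, and supplemented Ts65Dn 1 to 8 held 0, 11.2, 6.5, 0, 0, 4.95, 4.32 and 12.5 CPM. The highest supplemented library thus reached 17.9 CPM, and a library at 0 occurred in every group. Group means were 29.4 ± 42.6, 163.5 ± 269.1, 6.77 ± 8.33 and 4.94 ± 4.97 CPM (SD; n = 6, 6, 4 and 8) for control-diet 2N, then control-diet Ts65Dn, supplemented 2N and last supplemented Ts65Dn.

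**Figure D1:**
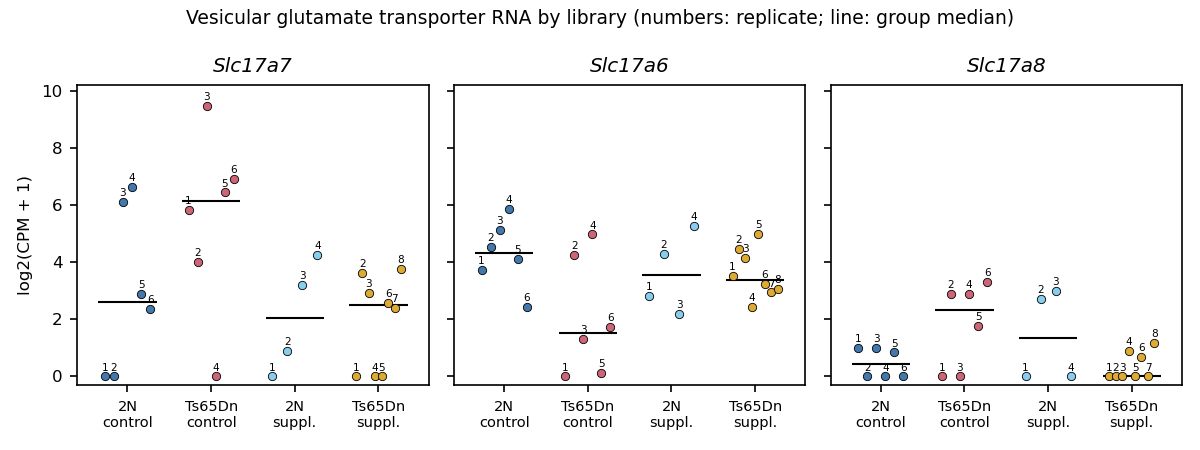
RNA of the 3 vesicular glutamate transporters, 1 panel per gene; the vertical axis is log2(CPM + 1), the horizontal axis the 4 groups, each number is 1 library's replicate number and each line a group median. Slc17a7 exceeds 50 CPM in 6 libraries, all of the control diet and, but for control-diet Ts65Dn 1, all of identifier prefix 17. Control-diet Ts65Dn 3 stands at 705 CPM. Slc17a6 is above 0 in 23 of 24 libraries.

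Slc17a7 was lower in supplemented than in control-diet Ts65Dn by a log2 difference of -4.98 ± 1.19 (SE), which missed the threshold over all genes (edgeR's quasi-likelihood test, adjusted p = 0.0661). The groups overlapped: all 8 supplemented libraries lay below the control median, 5 of 6 control libraries lay above every supplemented one, and control-diet Ts65Dn 4 was at 0. RNA of a captured pool does not tell fewer cells of a type from less RNA per cell. The 3 control-diet Ts65Dn libraries with the most Slc17a7 (705, 119 and 85.9 CPM in replicates 3, 6 and 5) were the same 3 with the least Chat. Without them, a choice made after seeing the data, the difference was -1.90 (adjusted p = 0.713). Without all 6 libraries under 1 CPM of Chat it was -1.92 (adjusted p = 0.75). Both fits leave out the highest Slc17a7 values of control-diet Ts65Dn, which lowers that group by construction. The other 3 libraries with little Chat held 6.42, 4.32 and 8.27 CPM of Slc17a7. With the identifier prefix as a factor it was -0.99 (adjusted p = 0.95), and within prefix 16, with 2 libraries on each side, -2.39. Without control-diet Ts65Dn 3 alone it was -3.22 (adjusted p = 0.282). The call was made without control-diet Ts65Dn 2 (-5.22, adjusted p = 0.0483), without control-diet Ts65Dn 4 (-5.24, adjusted p = 0.0237) and without the libraries over 50 counts of Xist (-5.75, adjusted p = 0.0459). Without a filter on low counts it was -5.01 (adjusted p = 2.53e-23), a fit over 39538 genes. How many of all genes passed in that fit is not given here, so its p-value is not read beside those of the filtered fits. Over the 14 fits that left out 1 library, the adjusted p ran from 0.0237 to 0.282.

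**Figure D2:**
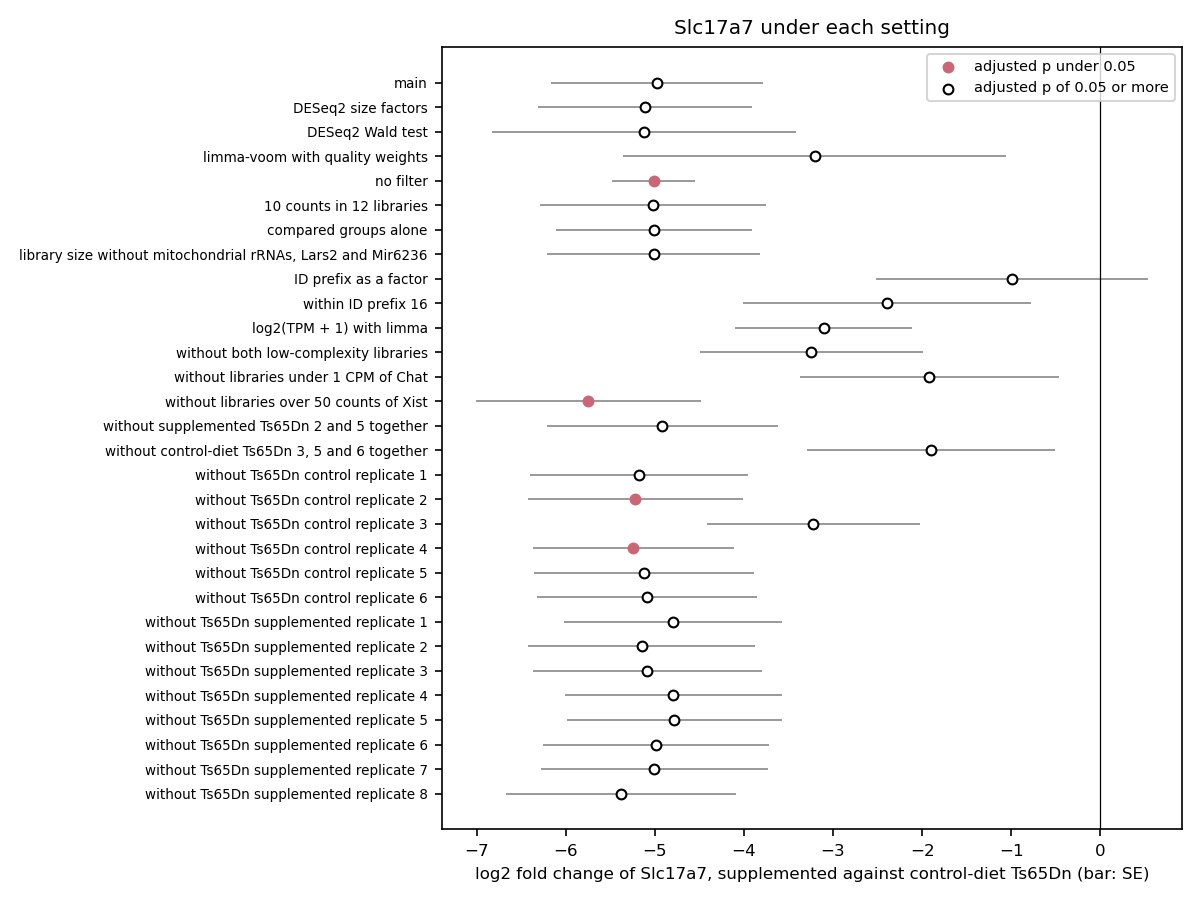
Log2 difference of Slc17a7 between supplemented and control-diet Ts65Dn (horizontal axis) under each way of fitting the data (vertical axis), with bars for the SE; filled points passed an adjusted p of 0.05 and open points did not. The value is negative in every fit shown and ranges from -5.75 to -0.99; the low-complexity libraries are control-diet Ts65Dn 3 and supplemented Ts65Dn 7, with the fewest genes detected (13102 and 13141).

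On the control diet Slc17a7 was higher in Ts65Dn than in 2N by 2.66 ± 1.20 on the log2 scale (adjusted p = 0.38), with 2 of 6 Ts65Dn libraries above every 2N library. The sign turned without the 3 Ts65Dn libraries with the least Chat and the most Slc17a7 (-0.45). Within prefix 17 the difference was 2.63 (4 libraries on each side). In 2N the supplemented animals were lower by 2.20 on the log2 scale (-2.20 ± 1.39, adjusted p = 1), which became 1.70 with the prefix as a factor. The difference between these 2 diet effects was -2.78 ± 1.66 (interaction, adjusted p = 0.719), and it became 0.31 without the same 3 libraries. Supplemented Ts65Dn against supplemented 2N gave -0.13 ± 1.22 (adjusted p = 1).

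Slc17a6, the subcortical transporter that also marks glutamatergic neurons of the medial septum, was the most evenly spread of the transporters. Control-diet 2N ranged from 4.37 to 57.5 CPM with a median of 19.3. Control-diet Ts65Dn ranged from 0 to 30.4 with a median of 1.89, where replicates 1, 3, 5 and 6 (0, 1.49, 0.09 and 2.29) lay below every control-diet 2N library. Supplemented 2N 1 to 4 held 6.10, 18.5, 3.54 and 37.9 CPM, and supplemented Ts65Dn ranged from 4.39 to 31.1 with a median of 9.54. The 4 control-diet Ts65Dn libraries with the least Slc17a6 were the 4 of that group with the most Slc17a7. Other groups did not share this pattern: control-diet 2N 3 and 4 (34.1 and 57.5 CPM of Slc17a6) were highest of their group for both genes. Supplemented 2N 4 was also highest for both, while supplemented Ts65Dn 5, with the most Slc17a6 of its group, held no Slc17a7. The genotype difference on the control diet was -1.51 ± 0.94 (adjusted p = 0.628) and -1.81 within prefix 17. It was -2.37 without control-diet Ts65Dn 4, -0.65 without control-diet Ts65Dn 3, 5 and 6, -0.74 without the 6 libraries under 1 CPM of Chat and -2.97 by limma-voom, none of them called. On the supplemented diet the genotypes differed by -0.03 ± 0.97 (adjusted p = 1).

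Slc17a8, the transporter of scattered neurons, was near the detection limit. It was at 0 in 12 of 24 libraries and reached at most 8.81 CPM, in control-diet Ts65Dn 6. The highest value was 1 in control-diet 2N and 1.24 in supplemented Ts65Dn, while 4 of 6 control-diet Ts65Dn libraries (replicates 2, 4, 5 and 6 at 6.46, 6.39, 2.41 and 8.81) and 2 of 4 supplemented 2N libraries (replicates 2 and 3 at 5.59 and 6.89) lay above both. Its group sums were 30, 227, 116 and 22 counts in the order used above. The genotype difference was 3.03 ± 2.15 on the control diet (adjusted p = 0.724) and -2.89 ± 2.04 on the supplemented diet (adjusted p = 0.833), and the diet difference in Ts65Dn was -3.31 ± 1.95 (adjusted p = 0.653). The interaction was -5.92 ± 2.97 (adjusted p = 0.604), so the opposite signs on the 2 diets were not resolved.

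Which transporter led differed from library to library. In TPM, Slc17a7 exceeded Slc17a6 in 2 of 6 control-diet 2N, 5 of 6 control-diet Ts65Dn, 2 of 4 supplemented 2N and 2 of 8 supplemented Ts65Dn libraries. In control-diet Ts65Dn 3 it made up 99.8% of the 190 TPM of the 3 transporters, and in control-diet Ts65Dn 5 and 6 it made up 96.6% and 86.6%. In supplemented Ts65Dn the 3 genes summed to 2.66 to 14.6 TPM, and Slc17a7 made up 0% to 58.3% of that. These shares are from small sums in most libraries and were not tested.

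**Figure D3:**
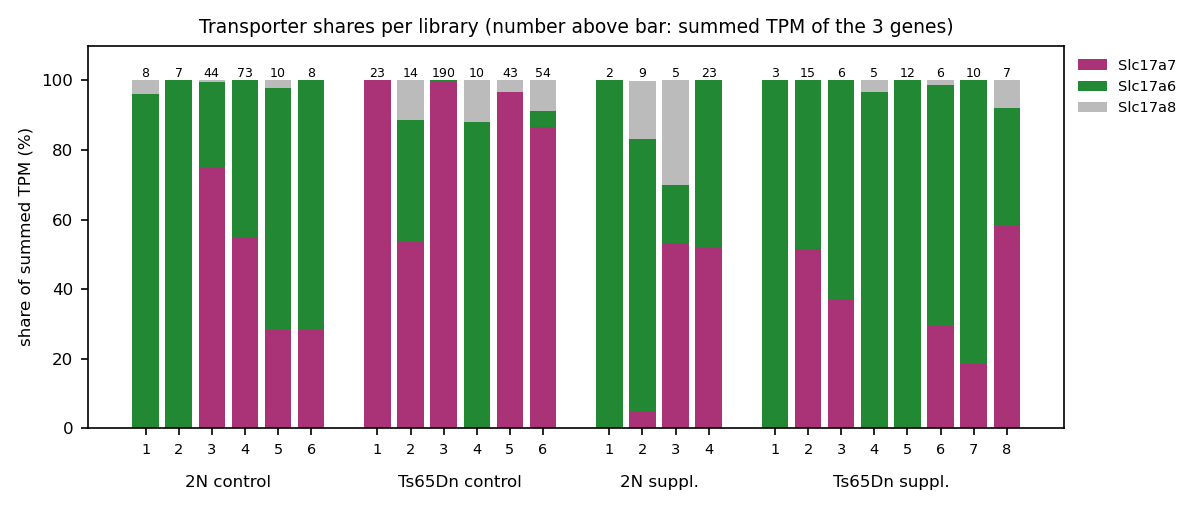
Share of the summed TPM (vertical axis, percent) taken by each of the 3 vesicular glutamate transporters in each library (horizontal axis, replicate numbers within the 4 groups), with the summed TPM above each bar. Slc17a7 is the larger of Slc17a7 and Slc17a6 in 5 of 6 control-diet Ts65Dn libraries and in 2 of 8 supplemented ones.

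Neurod2, the basic helix-loop-helix factor of excitatory cortical neurons, was highest in 3 libraries that were also high for Slc17a7. Control-diet 2N 1 to 6 held 1.28, 0, 17.1, 15.9, 0 and 0.48 CPM, and control-diet Ts65Dn 1 to 6 held 0, 3.28, 177, 0, 23.6 and 37.5 CPM. The 3 highest values were again those of control-diet Ts65Dn 3, 6 and 5. Supplemented 2N 1 to 4 held 0, 0.12, 0 and 0.09 CPM, only 2 counts in all, and supplemented Ts65Dn ranged from 0 to 5.80 with a median of 0.36. Neurod2 thus stood below 6 CPM in all 12 supplemented libraries. The libraries above 6 CPM, control-diet 2N 3 and 4 and control-diet Ts65Dn 3, 5 and 6, all had identifier prefix 17. In Ts65Dn the diet difference was -4.94 ± 1.40 (adjusted p = 0.165). It became 0.33 without control-diet Ts65Dn 3, 5 and 6, the libraries with the least Chat and also the most Neurod2 of their group. Leaving them out lowers that group by construction. The control-diet genotype difference was 2.98 ± 1.43 (adjusted p = 0.428), and it became -2.29 without them and 3.08 within prefix 17. In 2N the pooled CPM was 123-fold higher on the control diet (350 against 2 counts, 95% counting interval 33.9 to 1023), with an adjusted p of 0.566. On the supplemented diet it was 25.7-fold higher in Ts65Dn (80 against 2 counts, 6.9 to 215), with an adjusted p of 0.428. Both intervals cover counting error only and leave out the spread between animals.

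Neurod6, the second factor of this family, was detected in 10 libraries, and its highest value fell in a library without Neurod2 counts. It ranged from 0 to 16.3 CPM in control-diet 2N (median 0.40) and from 0 to 7.97 in control-diet Ts65Dn (median 0.44). It was at 0 in all 4 supplemented 2N libraries and in 6 of 8 supplemented Ts65Dn libraries, where the highest value was 1.52. Control-diet 2N 2, with the highest Neurod6 of all (16.3 CPM), held no counts of Slc17a7 or Neurod2. In 2N the pooled level was at least 66.5-fold higher on the control diet (283 against 0 counts, adjusted p = 0.566). That limit takes 3 counts over the supplemented group and covers counting error only. Of the 283 counts, 161 came from control-diet 2N 2 and 112 from control-diet 2N 3. In Ts65Dn the diet difference was -3.23 ± 1.99 (adjusted p = 0.686). It became 1.64 without control-diet Ts65Dn 3, 5 and 6, which held the least Chat and also the most Neurod6 of their group. On the supplemented diet Ts65Dn was at least 2.4-fold higher by the same limit (11 against 0 counts, adjusted p = 0.61).

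Tbr1 and Emx1, the deep-layer and dorsal telencephalic factors, were low and detected in a part of the libraries. Tbr1 ranged from 0 to 17.7 CPM in control-diet 2N (median 0.13), from 0.55 to 6.36 in control-diet Ts65Dn (2.47), from 0.12 to 7.66 in supplemented 2N (1.79) and from 0 to 8.11 in supplemented Ts65Dn (1.05). All 4 groups overlapped, and the adjusted p was 0.986 or higher in each of the 5 comparisons. Emx1 was above 0 in 3 control-diet 2N libraries (at most 2.62 CPM), in control-diet Ts65Dn 1 and 6 (1.15 and 14.7) and in supplemented Ts65Dn 4 (0.34, 2 counts). It was at 0 in all 4 supplemented 2N libraries. Its pooled CPM in Ts65Dn was 83.1-fold higher on the control diet (133 against 2 counts, counting interval 22.6 to 693, adjusted p = 0.304), of which 122 counts came from control-diet Ts65Dn 6. In 2N it was at least 8.5-fold higher on the control diet (36 against 0 counts, adjusted p = 0.607).

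Bcl11b and Cux2, the factors that striatal projection neurons or interneurons also express, were detected in every library. Bcl11b stood at 81.3 ± 11.9 CPM in control-diet 2N (SD, n = 6), 147 ± 78.2 in control-diet Ts65Dn (n = 6), 93.8 ± 32.0 in supplemented 2N (n = 4) and 85.7 ± 47.4 in supplemented Ts65Dn (n = 8). In control-diet Ts65Dn 4 of 6 libraries exceeded every control-diet 2N library, led by replicates 3 and 1 (251 and 241 CPM), and supplemented Ts65Dn 7 was lowest of all at 6.87. The control-diet genotype difference was 0.87 ± 0.38 (adjusted p = 0.35) and 1.03 within prefix 17. The diet difference in Ts65Dn was -0.65 ± 0.35 (adjusted p = 0.593), and the interaction was -0.77 ± 0.55 (adjusted p = 0.829). Without control-diet Ts65Dn 3 alone these 3 values were 0.56, -0.32 and -0.44, and without both low-complexity libraries they were 0.56, -0.15 and -0.27. Within prefix 16 the diet difference in Ts65Dn was -1.93, with the prefix as a factor it was -1.12, and over the settings tried it ran from -1.93 to -0.15 with no call. Cux2 stood at 91.6 ± 28.8, 78.0 ± 33.6, 80.8 ± 38.9 and 81.1 ± 26 CPM in the 4 groups, between 25.1 and 132 in single libraries. Its log2 differences lay between -0.31 and 0.60 in the 5 comparisons, with adjusted p-values of 0.889 or higher. The opposite-strand genes Gm3970 and Gm15637 overlap Cux2, and same-strand gene models overlap Slc17a7 (Mir7055) and Slc17a6 (Gm45072); how reads were assigned by strand is not given in the sources used here.

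**Figure D4:**
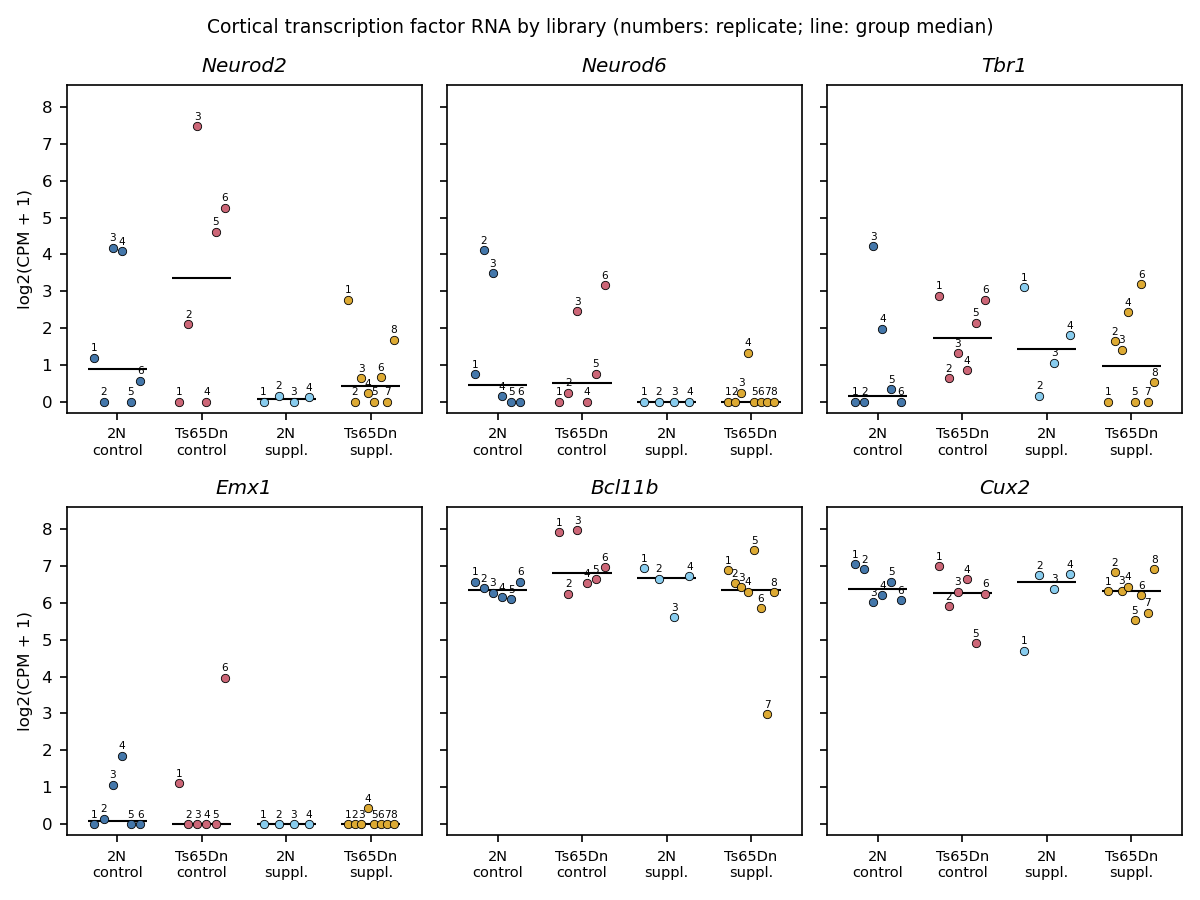
RNA of the 6 cortical transcription factors, 1 panel per gene; the vertical axis is log2(CPM + 1), the horizontal axis the 4 groups, each number is 1 library's replicate number and each line a group median. Bcl11b and Cux2 are above 6 CPM in all 24 libraries, while Neurod2, Neurod6 and Emx1 are at 0 in 9, 14 and 18 libraries.

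Over the 9 genes none was called at an adjusted p under 0.05 in any of the 5 comparisons by edgeR's quasi-likelihood test, and none was called by DESeq2 or limma-voom. On the control diet, Ts65Dn against 2N gave 0 of 9 called, where 0.336% of all 19967 tested genes were called; 3 members had an unadjusted p under 0.05 (2179 of all genes), 5 of 9 differences were positive (49% of all genes), and their median was 0.87 against -0.02 over all genes. Supplementation in Ts65Dn gave 0 of 9, where 0.13% of all genes were called; 3 members had an unadjusted p under 0.05 (1920 of all genes), 2 of 9 differences were positive (51.9% of all genes), and their median was -3.23 against 0.04. Supplementation in 2N gave 0 of 9, where 0.00501% were called; 3 members had an unadjusted p under 0.05 (1382 of all genes), 2 of 9 were positive (46.5%), and their median was -0.71 against -0.06. On the supplemented diet, Ts65Dn against 2N gave 0 of 9, where 0.18% were called; 1 member had an unadjusted p under 0.05 (1894 of all genes), 5 of 9 were positive (54%), and their median was 0.11 against 0.09. The interaction gave 0 of 9, where 0.00501% were called; no member had an unadjusted p under 0.05 (1683 of all genes), 5 of 9 were positive (54.4%), and their median was 0.10 against 0.13. Fitted values against groups with 0 to 2 counts enter 4 of these medians, all but that of genotype on the control diet, and the interaction median is Emx1's own fitted value. Without those genes the medians were -1.94 for diet in Ts65Dn (8 genes), and over 6 genes -0.31 for diet in 2N, -0.08 for genotype on the supplemented diet and -0.41 for the interaction. With them set at their ratios or bounds of pooled CPM, the diet medians were -3.23 and -0.71 and that of genotype on the supplemented diet was 0.04 over 8 genes. The diet comparisons share no samples with each other, and each shares a group with both genotype comparisons, so their values are not independent.

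Within groups, libraries with more Slc17a7 tended to hold more Neurod2 and less Chat, relations that did not pass adjustment. After group means of log2 CPM were subtracted, Slc17a7 and Neurod2 gave Pearson's r = 0.541 (permutation p = 0.0194, adjusted p = 0.113) and Spearman's rho = 0.543 (permutation p = 0.0135, adjusted p = 0.121) over 24 libraries. Without the 2 libraries farthest from the median of Slc17a7 after this subtraction the r was 0.46. In every relation these were control-diet 2N 1 and control-diet Ts65Dn 4, both at 0 CPM of Slc17a7. Control-diet Ts65Dn 3, with the most Slc17a7 (705 CPM) and the most Neurod2, stayed in. The values without the 2 farthest libraries therefore do not show whether a relation depends on that library. Within prefixes 15, 16 and 17 the r of Slc17a7 and Neurod2 was 0.282, 0.312 and 0.886 (n = 7, 6 and 9). For Slc17a7 and Tbr1 the r was 0.451 (permutation p = 0.0376, adjusted p = 0.113) and rho 0.417 (permutation p = 0.0591, adjusted p = 0.177), with r = 0.398 without the 2 farthest libraries and 0.511, 0.237 and 0.546 within the prefixes. For Slc17a7 and Chat the r was -0.48 (permutation p = 0.026, adjusted p = 0.113) and rho -0.462 (permutation p = 0.0304, adjusted p = 0.137), with r = -0.448 without the 2 farthest libraries and 0.143, -0.624 and -0.545 within the prefixes. The r of Slc17a7 and Slc17a6 was -0.171 and rho 0.0879 (permutation p = 0.547 and 0.713, adjusted p = 0.803 and 0.814), 0.0539 without the 2 farthest libraries and 0.415, -0.208 and -0.398 within the prefixes. These are 4 of 9 relations computed, one with each other member and one with Chat; none passed after Benjamini-Hochberg adjustment, and the difference between 2 correlations was not tested.

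**Figure D5:**
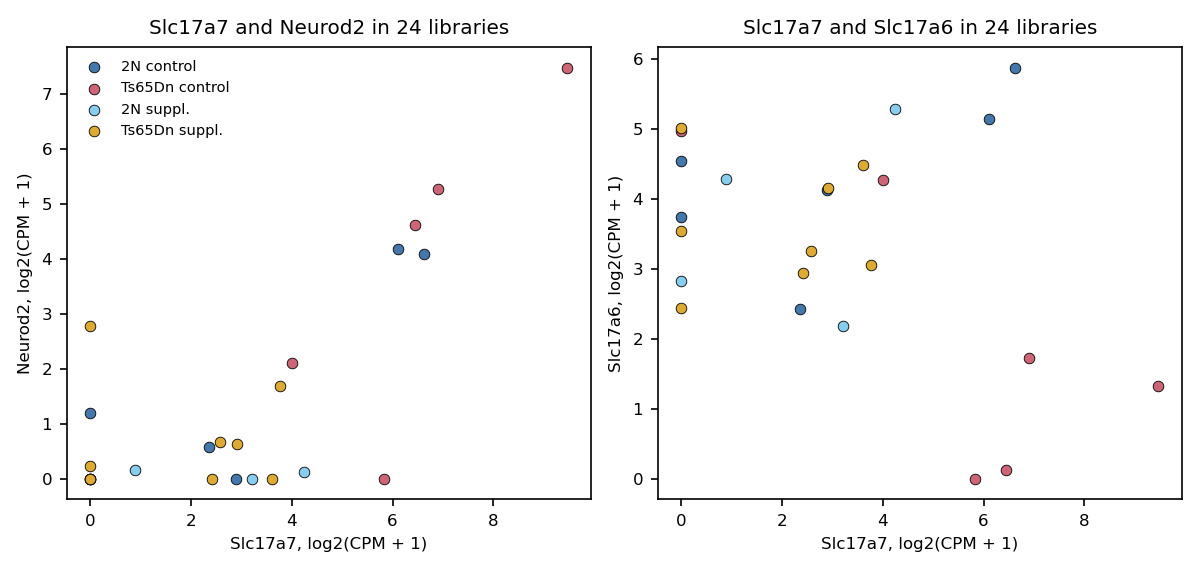
Each of the 24 libraries by its Slc17a7 RNA (horizontal axis) and its Neurod2 RNA (left panel) or Slc17a6 RNA (right panel), both as log2(CPM + 1), coloured by group. The 3 libraries with the most Neurod2 are control-diet Ts65Dn 3, 5 and 6, which hold 705, 85.9 and 119 CPM of Slc17a7, and the same 3 hold 2.29 CPM of Slc17a6 or less.

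Among 14419 tested protein-coding genes, those whose log2 CPM most resembled that of Slc17a6 over the 24 libraries, after subtraction of group means, were Ap3m1, Acbd3, Hsd17b11, Cerk and Elmod2 (Pearson's r = 0.804, 0.795, 0.738, 0.733 and 0.732). For Bcl11b they were Cmtr1, Rpap1, Washc1, Tom1 and Rassf5 (r = 0.912, 0.86, 0.856, 0.847 and 0.817). For Slc17a7, added after the data were seen, they were Hipk3, Celf2, Enc1, Mpp3 and Chrdl1 (r = 0.802, 0.798, 0.774, 0.76 and 0.756), and Neurod2 ranked 159 and Tbr1 442. These are the highest of many values that share libraries and depth, and they are given as a description.

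Other genes of cortical and hippocampal projection neurons gave calls where the 9 genes did not. Of 30 such genes, listed with earlier results of these data known, 28 were tested. The counts of this and the following lists are to be read beside the shares of all genes given above for each comparison. Because the lists were chosen with earlier results known, a higher share in them does not show enrichment. In Ts65Dn 23 of 28 had a negative and 5 a positive difference with supplementation (median -0.89), and 3 were called lower: Nptxr, the neuronal pentraxin receptor, by 2.88 on the log2 scale (-2.88 ± 0.38, adjusted p = 2.71e-05), Camk2a, the alpha subunit of the calcium/calmodulin kinase of excitatory synapses (-1.98 ± 0.41, adjusted p = 0.0212), and Sv2b, a synaptic vesicle protein (-3.29 ± 0.73, adjusted p = 0.0464). Nptxr stood at 571.6 ± 551.2 CPM in control-diet Ts65Dn and 70.5 ± 16.3 in supplemented Ts65Dn, with no overlap. All 8 supplemented Ts65Dn libraries also lay below all 4 of supplemented 2N, where the fitted difference was -0.49 ± 0.41 (edgeR, adjusted p = 0.902). The share of all genes without overlap was not computed, so neither separation is read as a result. On the control diet Nptxr and Camk2a were called higher in Ts65Dn than in 2N (1.81 ± 0.40, adjusted p = 0.0298, and 1.86 ± 0.45, adjusted p = 0.0472), with 16 of 28 genes positive. Control-diet Ts65Dn 3, 5 and 6, with the least Chat, also held the group's highest sums of this list (5346, 2792 and 3507 CPM). Leaving them out was chosen after seeing the data and took 3 of the group's 6 libraries, so calls could be lost by that alone. None of these 5 calls held without them. In Ts65Dn the diet differences were -1.36 (Nptxr, adjusted p = 0.0983), -0.52 (Camk2a, adjusted p = 0.764) and -1.32 (Sv2b, adjusted p = 0.617). The control-diet genotype differences were 0.29 (Nptxr, adjusted p = 0.95) and 0.39 (Camk2a, adjusted p = 0.931). Without control-diet Ts65Dn 3 alone, Nptxr in Ts65Dn with supplementation was still called, and the other 4 were not. The same held with the identifier prefix as a factor: Nptxr in Ts65Dn with supplementation was -2.38 (adjusted p = 0.0132), Camk2a -1.15 (adjusted p = 0.498) and Sv2b -2.10 (adjusted p = 0.456), and for genotype on the control diet Nptxr was 1.78 (adjusted p = 0.0533) and Camk2a 1.63 (adjusted p = 0.109). Within prefix 16 the diet differences were -1.46, -0.15 and -1.14 for Nptxr, Camk2a and Sv2b, and within prefix 17 the genotype differences were 2.04 for both Nptxr and Camk2a, none called. By limma-voom none of the 5 was called, with adjusted p-values of 0.237 to 0.499. In 2N 22 of 28 differences were negative with supplementation (median -0.61), none called, 2 at an unadjusted p under 0.05 and none called by DESeq2. The summed level of the 30 genes was 1175 to 2652 CPM in control-diet 2N, 1359 to 5346 in control-diet Ts65Dn, 1019 to 1553 in supplemented 2N and 587 to 1622 in supplemented Ts65Dn, highest in control-diet Ts65Dn 3 and 6. Neurog2 was the one gene of the list at 0 in a whole group, in all but supplemented Ts65Dn.

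Enzymes and carriers that make, recycle and take up glutamate gave no call. All 19 genes of that list were tested. On the control diet 14 of 19 differences were negative in Ts65Dn and 5 positive (median -0.17), among them Glud1, glutamate dehydrogenase, at -0.74 ± 0.28 (adjusted p = 0.233). With supplementation in Ts65Dn 13 were positive and 6 negative (median 0.16), among them Got1, a cytosolic aspartate aminotransferase, at 0.66 ± 0.26 (adjusted p = 0.295). In both comparisons 4 genes had an unadjusted p under 0.05, and none was called by edgeR or DESeq2. Of the 6 other members of the SLC17 family 1 was tested, Slc17a5, the lysosomal sialic acid carrier (-1.53 ± 1.40 with supplementation in Ts65Dn, adjusted p = 0.85). Of 11 genes of medial septal and other subcortical glutamatergic neurons 6 were tested; all 6 differences were negative in Ts65Dn on the control diet (median -0.73), none called, none at an unadjusted p under 0.05 and none called by DESeq2. The member of that list with the smallest p was Lhx5, a LIM homeobox factor (4.27 ± 2.17 with supplementation in Ts65Dn, adjusted p = 0.539).

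The lists of other cells were read beside these values. Of 13 cholinergic genes 12 were tested, and all 12 differences were positive with supplementation in Ts65Dn (median 1.30), none called, 6 at an unadjusted p under 0.05 and none called by DESeq2. Ngfr, the low-affinity neurotrophin receptor, differed by 1.5 ± 0.52 (adjusted p = 0.244) and Slc18a3, the vesicular acetylcholine transporter, by 3.14 ± 1.30 (adjusted p = 0.346). The summed cholinergic level was 290 to 403 CPM in control-diet 2N, 50.5 to 372 in control-diet Ts65Dn, 380 to 705 in supplemented 2N and 275 to 590 in supplemented Ts65Dn, and Gbx2 was at 0 in every group but control-diet Ts65Dn. The summed level of 15 genes of striatal projection neurons, which share Bcl11b, was 441 to 627, 368 to 979, 344 to 777 and 183 to 463 CPM in the same order, with no gene at 0 in a whole group. Of these, 11 of 15 differences were negative with supplementation in Ts65Dn (median -0.53), none called, 3 at an unadjusted p under 0.05 and none called by DESeq2. The summed level of 14 GABAergic genes was 1317 to 2030, 525 to 2238, 1573 to 2124 and 1087 to 2033 CPM, and of 15 oligodendrocyte genes 3509 to 4466, 762 to 4280, 3073 to 3761 and 2484 to 4244 CPM. On the control diet 14 of 15 astrocyte genes (median -0.65), 14 of 15 oligodendrocyte genes (-0.56) and 12 of 14 GABAergic genes (-0.46) had a negative difference in Ts65Dn. With supplementation in Ts65Dn the difference was positive for 13 of 15 oligodendrocyte genes (median 0.48), 11 of 15 astrocyte genes (0.33) and 10 of 14 GABAergic genes (0.35). Control-diet Ts65Dn 3 held the lowest sum of the cholinergic, GABAergic and oligodendrocyte lists among the 24 libraries. None of the striatal, GABAergic, oligodendrocyte, oligodendrocyte precursor, astrocyte, microglial or vessel genes was called by edgeR in any comparison, with 0 to 3 of them per list at an unadjusted p under 0.05, and DESeq2 called 5: Aldoc, Mobp, Mag, Ly6c1 and Pdyn, each in 1 comparison. Aldoc was called for genotype on the control diet, where DESeq2 called 326 of all genes. Mag and Pdyn were called for genotype on the supplemented diet (410 of all genes), and Mobp and Ly6c1 for diet in Ts65Dn (236 of all genes). The part of these cell types in the results on Slc17a7 and Neurod2 was not tested.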

How the data were processed

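Total RNA of laser-captured neurons had been made into stranded low-input libraries and sequenced as single reads, per the labels' protocols. Per the submitters' processing notes, the authors used Trimmomatic 0.39, STAR and RSEM; STAR's and RSEM's versions, and the role of the builds GRCm39 and mm10, were not given in the sources used here. Deposited by the authors were unnormalized expected counts from RSEM for each gene and TPM, a length-scaled share of transcripts, 1 library per column. Expected counts of the series table equalled those of the 24 per-sample files. Symbols came from GENCODE M21 for 52081 of 55414 identifiers.

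Counts were rounded and tested in edgeR 4.0.16 (R 4.3.3): filterByExpr at a minimum count of 10 (19967 genes kept), TMM scaling and the two-sided quasi-likelihood F test, all 24 libraries in 1 fit without a covariate. Benjamini-Hochberg adjustment ran over every tested gene, with calls at an adjusted p under 0.05. The script was tested on simulated data. SEs are the log2 difference over the root of F, an approximation. The biological coefficient of variation was 1.4. CPM is the unrounded expected count scaled by the library's total. Reads carried no molecular identifiers. Where no label ties animals to litters, p-values treat them as independent.

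The members and lists were chosen with earlier results of these data known. The named genes were the members, Chat, Slc18a3, Slc5a7, Xist, Kdm5d, up to 4 called genes of each list (otherwise 1 or 2 of the smallest p, not all of which are printed), and the 5 genes most like the transporter and the factor of highest mean log2 CPM. After the data were seen, member differences were limited for closer study to those with an unadjusted p under 0.2 and over 3 counts in every group of the comparison. Group values with 0 counts are bounded at 3 counts over the group. Correlations used log2 CPM (prior count 2) with 1e+05 permutations within groups. Alternatives were DESeq2 1.42.0 (size factors and Wald test), limma 3.58.1 (voom with quality weights, and log2 of TPM with a pseudocount of 1), other filters, fits of the compared groups alone, another library size, the identifier prefix, and libraries left out.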

Additional observations from a re-analysis of the deposited data

Results flagged for a closer look

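A gap test (Dixon's, at its 95% critical value) was run on the highest and lowest library of each member in each group of 4 to 10 libraries with any count, 34 groups in all. It singled out 7. Chance flags about 1 in 20 groups of normally distributed values, a rate that does not carry over to groups with many zeros: a group with 1 library above 0, such as Emx1 in supplemented Ts65Dn, is always singled out. For Slc17a7, control-diet Ts65Dn 3 held 705.43 CPM, and the next library of its group 118.83. The same library held 176.82 CPM of Neurod2, and the next 37.54. For Emx1, control-diet Ts65Dn 6 held 14.73 CPM, and the next library 1.15. For Tbr1, control-diet 2N 3 held 17.72 CPM, and the next library 2.96. Among supplemented Ts65Dn, replicate 1 held 5.8 CPM of Neurod2 (next 2.22), and replicate 4 held 1.52 CPM of Neurod6 (next 0.18) and 0.34 CPM of Emx1 (next 0). The last of these rests on 2 counts.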

How the results depend on the processing

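The number of the 9 genes called was 0 in each of the 5 comparisons, and it moved under few settings. Without a filter on low counts it was 1 for genotype on the control diet, 2 for diet in Ts65Dn, 1 for diet in 2N and 1 for the interaction. Without the libraries over 50 counts of Xist it was 1 for diet in Ts65Dn. Leaving out 1 library at a time gave 0 to 1 for diet in Ts65Dn (1 without control-diet Ts65Dn 2 or 4) and 0 in the other comparisons. These counts are not set beside the number of all genes called in the same fits, so they do not show an excess among the members. For 15 differences of single genes, 415 of 426 values under the alternatives kept their direction, 11 turned and 7 passed the threshold.

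With the identifier prefix as a factor, Slc17a7 with supplementation in 2N turned to 1.70. Without the 6 libraries under 1 CPM of Chat, Slc17a7 was -0.65 and Neurod2 -2.54 for genotype on the control diet, Neurod2 0.57 and Neurod6 1.88 for diet in Ts65Dn, and Slc17a7 0.65 for the interaction. Without control-diet Ts65Dn 3, 5 and 6, chosen after seeing the data, the same 5 were -0.45, -2.29, 0.33, 1.64 and 0.31. Those libraries held the most Slc17a7, Neurod2 and Neurod6 of their group, so leaving them out lowers that group by construction. The cause of these turns was not tested. Slc17a7 with supplementation in Ts65Dn was -5.12 by DESeq2 (adjusted p = 0.119), -3.21 by limma-voom (adjusted p = 0.689), -3.11 on log2(TPM + 1) (adjusted p = 0.256) and -4.92 without supplemented Ts65Dn 2 and 5, also chosen after seeing the data (adjusted p = 0.0917).

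No paired analysis was possible because the replicate numbers follow accession order and no label links animals of different groups. Fits within 1 identifier prefix could not be made for diet in 2N or for the interaction, where no prefix holds 2 libraries of each group. Litter and diet cannot be told apart. At 4688258 to 13443438 counts per library, Neurod6 and Emx1 reached 3 counts in 7 and 4 of 24 libraries and Slc17a8 in 12, so their differences rest on few libraries.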
